A study of Mus musculus with 28 samples.

Results

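Integrin mRNA was followed in CD4+ T cells given TGF-β, IL-4, both or neither, with and without the type I TGF-β receptor. The 10 genes were chosen by name as the integrin subunits a T cell is known for, namely Itgae, Itgb7, Itga4, Itgb1, Itgal, Itgb2, Itgav, Itgb3, Itga1 and Itga2, out of 24089 genes in the table, and all 10 were found there. Of these, 8 passed a filter on low values in at least 1 comparison, and Itga1 and Itga2 passed in none.

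Integrins are cell surface receptors made of an α and a β chain, and neither chain reaches the surface well without a partner. They hold T cells to endothelium, epithelium, antigen-presenting cells and matrix, and their affinity for ligand is set from inside the cell by talin, kindlins and small GTPases. αEβ7, the product of Itgae (CD103) with Itgb7, binds E-cadherin and is a textbook mark of T cells that stay in epithelium. α4β7 guides T cells to the gut, α4β1 binds VCAM-1, and αLβ2 (LFA-1) binds ICAM-1 at the contact with the antigen-presenting cell. αv pairs with several β chains, of which αvβ3 binds matrix proteins such as vitronectin, while α1β1 and α2β1 bind collagens.

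The cells were naïve CD4+ T cells of mice that all carried floxed Tgfbr1 alleles and a tamoxifen-inducible Cre (Tgfbr1 f/f ER-cre+) on a C57BL/6 background. The mice had been given oil (WT) or tamoxifen (Tgfbr1 KO), so that KO and WT differed in tamoxifen as well as in the deletion, and this Cre is not restricted to T cells. The cells were stimulated through the T cell receptor with anti-CD3 and anti-CD28 in medium alone (control), with TGF-β, with IL-4, or with TGF-β plus IL-4. RNA-seq covered 24 libraries in 8 groups of 3, and DNase-seq covered 4 libraries, those of replicate 3 for WT and KO in control medium and in TGF-β plus IL-4. Nothing in the labels says whether replicates of a group came from different mice, so that p-values measure only the spread between these libraries.

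The column headings of the expression table conflict with the read counts that the study lists for 8 WT libraries. All 8 of these libraries matched the column at their place in library-number order, where 99.849% or more of the genes had the same zero state, against at most 85.789% in the next best column. Only 2 of the 8 matched the column headed with their name. Columns were therefore read in library-number order, WT before KO, and within each replicate the control came first, then TGF-β, then IL-4, then both. The other 16 columns, 4 of WT replicate 2 and all 12 of KO, rest on this order alone. Heading and position name the same genotype for all 24 columns, but the same library for only 4. Everything below on cytokines depends on this reading. With the columns as headed, 0 members passed the test by limma in any of 16 comparisons, and at most 5 had an unadjusted p under 0.05, those of KO against WT under TGF-β.

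The values are RPKM, read counts corrected for gene length and library size. Total reads are unknown, and depth relative to 1 reference library ranged from 0.794 to 1.656, with a median of 1.22 in WT and 1.13 in KO. KO TGF-β+IL-4 replicate 2 stood apart: its mean correlation with the other 2 libraries of its group was 0.9892, against at least 0.9948 in the other 7 groups, and it was closest to KO IL-4 replicate 2 (r = 0.9936). Results that rest on it are given with and without it. The CD4 T cell markers, all 8 of which were found, summed to between 1529.8 and 2025.8 RPKM in every library. The 6 macrophage and monocyte markers summed to 4.77 to 7.12 RPKM in WT control and 6.95 to 19.9 RPKM in WT TGF-β, led by Lyz2. Of these, 2 could be tested there and 0 were called. In WT TGF-β+IL-4 against IL-4, 1 of 2 was called higher, and in KO against WT control 1 of 2 was called lower. The 2 CD8 T cell markers summed to 16.6 to 36.3 RPKM in WT and 14.3 to 28.3 RPKM in KO, which overlapped. Of the 2, Cd8a was 5.04 to 8.87 RPKM in WT and 1.14 to 3.85 RPKM in KO. In KO against WT control, 1 of 2 was called lower. The 4 NK cell markers summed to 5.75 to 7.96 RPKM in WT control, 1.25 to 1.32 RPKM in WT TGF-β and 5.13 to 5.90 RPKM in KO TGF-β. Only 1 of the 4, Eomes, could be tested for TGF-β in WT, and it was called lower (-1.74 ± 0.16, adjusted p = 1.66e-04). The 5 B cell markers summed to 14.8 to 23.3 RPKM in WT control and 9.27 to 10.51 RPKM in KO control, where 3 of 4 tested were called lower. The part of these cells in the results was not tested, and in bulk RNA fewer cells of a type and less RNA per cell cannot be told apart.

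Tgfbr1, the deleted gene, was 3.02, 3.25 and 3.31 RPKM in WT control and 2.32, 2.55 and 3.05 RPKM in KO control, and the difference did not pass the test. The table has 1 value per gene and so cannot show whether the floxed exon was lost. Tgfbr1 mRNA was itself higher in WT with TGF-β (14.1 ± 0.32 RPKM, SD, n = 3), and in KO with TGF-β it was 2.68 ± 0.49 RPKM, a log2 difference of -2.05 ± 0.097 (SE, adjusted p = 1.29e-06).

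**Figure D1:**
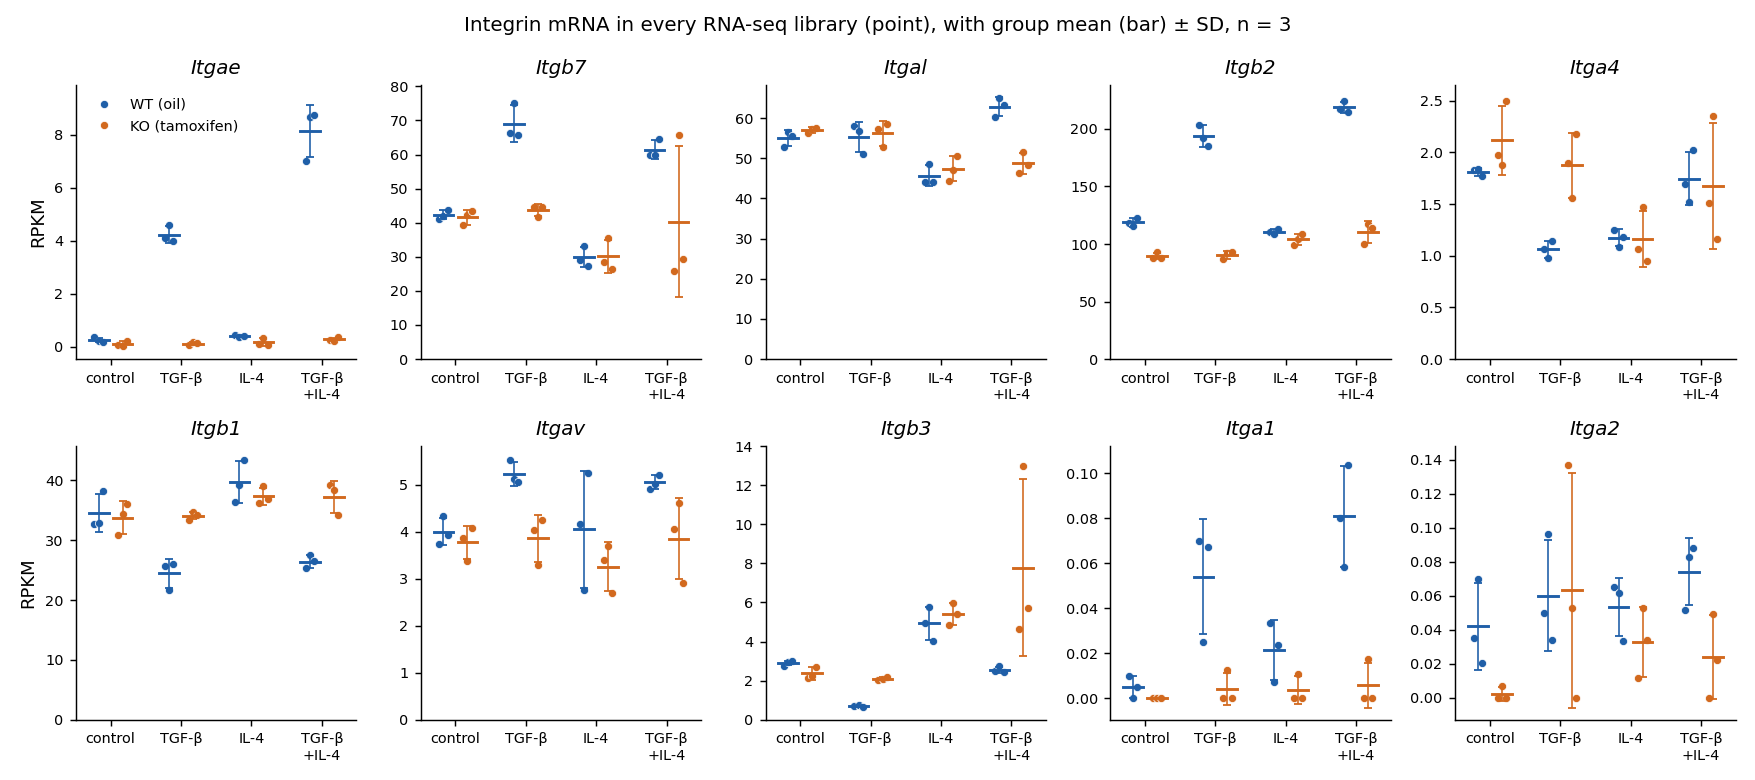
RPKM of the 10 integrin genes in each of the 24 RNA-seq libraries, by culture on the x axis, with WT in blue and KO in orange. Points are libraries, horizontal bars are group means and error bars are SD (n = 3). Itgae and Itgb2 were highest in the 2 WT cultures with TGF-β, Itgb3 was lowest in WT TGF-β at 0.637 to 0.769 RPKM, and the high KO TGF-β+IL-4 point for Itgb7 and Itgb3 is replicate 2.

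Itgae was almost silent without TGF-β and rose with it, more so with IL-4 added. In WT control its values were 0.363, 0.206 and 0.196 RPKM, and in WT IL-4 they were 0.429, 0.365 and 0.392 RPKM. In WT TGF-β they were 4.10, 4.60 and 3.98 RPKM. In WT TGF-β+IL-4 they were 7.001, 8.69 and 8.76 RPKM. The 2 groups with TGF-β were clear of each other and of all others. Groups that do not overlap were common. Between the WT groups compared, 24.3% (IL-4 against control) to 56.5% (both against IL-4) of genes tested did not overlap. For KO against WT in the same culture it was 33.6% (IL-4) to 51.5% (TGF-β). For TGF-β against control in WT it was 38.5% of genes and 7 of 8 members. In KO the 12 libraries lay between 0.0307 and 0.358 RPKM, where KO TGF-β lay below WT control and the other 3 KO groups overlapped with it. The highest and lowest libraries of the series differed 285-fold, the widest range among the 8 members read in every library. The lowest value, 0.0307 RPKM, was KO control replicate 2, where replicates 1 and 3 had 0.0518 and 0.232 RPKM, so that this fold is imprecise.

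The ratio of mean Itgae RPKM to WT control was 16.6 in WT TGF-β and 32.0 in WT TGF-β+IL-4. On the log2(RPKM + 1) scale, which understates the change of low genes, the rise was 2.06 ± 0.083 (SE, adjusted p = 3.47e-06) with TGF-β and 2.86 ± 0.10 (adjusted p = 1.48e-07) with both. A gene was called where its adjusted p was under 0.01 and its fold on this scale was over 1.5. By that rule 5.71% of the 9726 genes tested were called with TGF-β, among them 4 of the 8 members tested. With both cytokines it was 9.27% of genes and 2 of 8 members. Itgae passed the filter on low values only in fits that held a WT group with TGF-β. Its tests, and its place in the counts of members called here and below, therefore rest on its being high there. Itgae was too low to be tested for IL-4 alone, where its values did not overlap with WT control but the ratio of means was 1.55. There 24.3% of genes tested did not overlap.

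IL-4 added to TGF-β raised Itgae further, by 0.80 ± 0.096 on the log2 scale (adjusted p = 5.93e-04), in a comparison that called 3.03% of genes and 2 of 8 members. The ratio of means was 1.93. TGF-β added to IL-4 raised Itgae by 2.71 ± 0.094 (adjusted p = 1.83e-07), with 9.28% of genes and 4 of 8 members called. The test of whether TGF-β did more in the presence of IL-4 than in its absence gave a log2 difference of 0.65 ± 0.13 (adjusted p = 0.00764), where 1.77% of genes and 2 of 8 members were called. This last call is fragile. It was lost in 10 of 12 fits that left out 1 library and with a pseudocount of 0.1 (0.42, adjusted p = 0.290), with no filter (adjusted p = 0.0217), with the 8 libraries identified by read counts alone (adjusted p = 0.0406) and with a replicate block (adjusted p = 0.0110).

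In cells without Tgfbr1 no response of Itgae to TGF-β was detectable in the values, which were too low to be tested within KO. Under TGF-β the difference of KO from WT was -2.22 ± 0.081 on the log2 scale (adjusted p = 3.01e-07), a ratio of mean RPKM of 34.3 between WT and KO. There 9.68% of genes and 4 of 8 members were called. Under TGF-β+IL-4 it was -2.83 ± 0.11 (adjusted p = 1.96e-06), with 8.44% of genes and 2 of 8 members called, and -2.80 without KO replicate 2. The genotype term was also called, at -2.03 ± 0.13 for TGF-β (adjusted p = 4.40e-07) and -2.65 ± 0.15 for both cytokines (adjusted p = 4.44e-07). The first of these could not be tested without any 1 of the 3 WT TGF-β libraries, where the mean of Itgae fell under the filter, and it was called in the other 9 fits that left out 1 library. In KO TGF-β+IL-4, Itgae was 0.254, 0.230 and 0.358 RPKM, against 0.0518, 0.0307 and 0.232 RPKM in KO control, and the groups overlapped.

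Itgb7, which gives the β7 partner of both αE and α4, was well expressed in every culture and moved over a narrower range. In WT control it was 41.2, 42.0 and 43.7 RPKM, and in WT TGF-β it was 66.3, 75.2 and 65.7 RPKM. In WT IL-4 it was 29.2, 33.2 and 27.4 RPKM, and in WT TGF-β+IL-4 it was 59.8, 59.99 and 64.6 RPKM. The 4 WT groups did not overlap, as was so for 24.3% to 56.5% of genes tested between the WT groups compared. It rose with TGF-β by 0.69 ± 0.062 on the log2 scale (adjusted p = 1.70e-04), and from IL-4 to TGF-β+IL-4 by 1.02 ± 0.071 (adjusted p = 7.99e-06). Against control, TGF-β+IL-4 gave 0.53 ± 0.051 (adjusted p = 5.91e-05) and IL-4 alone gave -0.49 ± 0.072 (adjusted p = 0.00702), both past the p threshold with a fold under 1.5. With all 24 libraries in one fit the rise with TGF-β was not called (adjusted p = 0.0175).

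In KO, Itgb7 was 39.2, 42.3 and 43.4 RPKM in control and 44.7, 41.7 and 44.7 RPKM with TGF-β. Its difference from WT under TGF-β was -0.65 ± 0.063 (adjusted p = 9.34e-05), and the genotype term was -0.62 ± 0.086 (adjusted p = 3.35e-04). Both fell under the fold threshold without WT TGF-β replicate 2, at -0.58 and -0.56, and neither was called with all 24 libraries in one fit (adjusted p = 0.0145 and 0.210). In KO TGF-β+IL-4 the values were 25.9, 65.8 and 29.2 RPKM, so that replicate 2 lay above, and the other 2 below, every WT TGF-β+IL-4 library. With it the difference from WT was -0.72 ± 0.30 (adjusted p = 0.0971), and without it -1.13 (adjusted p = 2.71e-06).

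Itgb7 mRNA was above Itgae mRNA in every library. The mean ratio of Itgae to Itgb7 RPKM was 0.0612 ± 0.00063 (SD, n = 3) in WT TGF-β, 0.133 ± 0.014 in WT TGF-β+IL-4 but 0.00285 ± 0.0012 in KO TGF-β. E-cadherin (Cdh1), the ligand of αEβ7, was low in these T cells, at 0.163, 0.194 and 0.249 RPKM in WT control, compared with 0.950, 1.19 and 1.17 RPKM in WT TGF-β+IL-4. Its mean over those libraries was under 1 RPKM, so that it was not tested.

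Itgb2, the β chain of LFA-1 and of the myeloid integrins, was the most abundant member and rose with TGF-β. It was 118.0, 115.5 and 122.9 RPKM in WT control, 203.8, 192.3 and 185.1 RPKM in WT TGF-β, 110.7, 108.7 and 112.7 RPKM in WT IL-4 and 217.1, 224.5 and 214.7 RPKM in WT TGF-β+IL-4. These 4 groups did not overlap either, with the same shares of all genes. The rise against control was 0.70 ± 0.050 on the log2 scale with TGF-β (adjusted p = 5.34e-05) and 0.88 ± 0.046 with both (adjusted p = 1.45e-06), and from IL-4 to both it was 0.98 ± 0.041 (adjusted p = 3.83e-07).

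In KO, Itgb2 ran from 86.9 to 117.3 RPKM over the 12 libraries, and lay under WT in control, TGF-β and TGF-β+IL-4 but overlapped with it in IL-4. For KO against WT in the same culture, 33.6% (IL-4) to 51.5% (TGF-β) of genes tested did not overlap. KO control was 88.2, 92.7 and 88.0 RPKM, clear of WT control, with a difference of -0.40 ± 0.052 (adjusted p = 0.00223) that stayed under the fold threshold. The difference from WT was -1.08 ± 0.051 under TGF-β (adjusted p = 1.29e-06) and -0.98 ± 0.069 under TGF-β+IL-4 (adjusted p = 4.50e-05). In IL-4 it was -0.087 ± 0.050 (adjusted p = 0.297), with KO values of 99.3, 104.6 and 108.8 RPKM. The genotype term was called for TGF-β (-0.68 ± 0.069, adjusted p = 2.76e-05). For both cytokines it was -0.58 ± 0.086 (adjusted p = 7.61e-04), just under the fold threshold, which it passed in 7 of 12 fits that left out 1 library, at -0.63 without KO TGF-β+IL-4 replicate 2. Macrophages also carry β2 integrins. Itgam, the α chain of the myeloid β2 integrin Mac-1, was too low to be tested. It was 0.148 to 0.232 RPKM in WT control and 0.314 to 0.478 RPKM in WT TGF-β. In WT TGF-β+IL-4 it was 0.450 to 0.746 RPKM, and in KO at most 0.205 RPKM. Like Itgb2, it was thus higher with TGF-β in WT, and in KO it was not. Lyz2 was 16.7, 5.11 and 11.1 RPKM in WT TGF-β against 4.10, 5.35 and 3.06 RPKM in WT control, which overlapped. The part of macrophages in the Itgb2 values was not tested.

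Itgal, the αL partner, did not follow Itgb2. It was between 44.1 and 64.9 RPKM in all 24 libraries, a range of 1.47-fold. In WT TGF-β it was 58.1, 56.9 and 51.1 RPKM, overlapping with the 52.7, 56.6 and 55.5 RPKM of WT control. Its lowest group means were in IL-4, at 45.6 ± 2.6 RPKM in WT and 47.4 ± 3.1 RPKM in KO, and its highest was WT TGF-β+IL-4 at 62.8 ± 2.4 RPKM. No comparison called it. The difference of TGF-β+IL-4 from IL-4 in WT was 0.45 ± 0.054 (adjusted p = 1.81e-04), and that of KO from WT under both cytokines was -0.36 ± 0.060 (adjusted p = 0.00290), both with a fold under 1.5. The mean ratio of Itgal to Itgb2 RPKM was 0.286 ± 0.010 in WT TGF-β and 0.620 ± 0.044 in KO TGF-β.

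**Figure D2:**
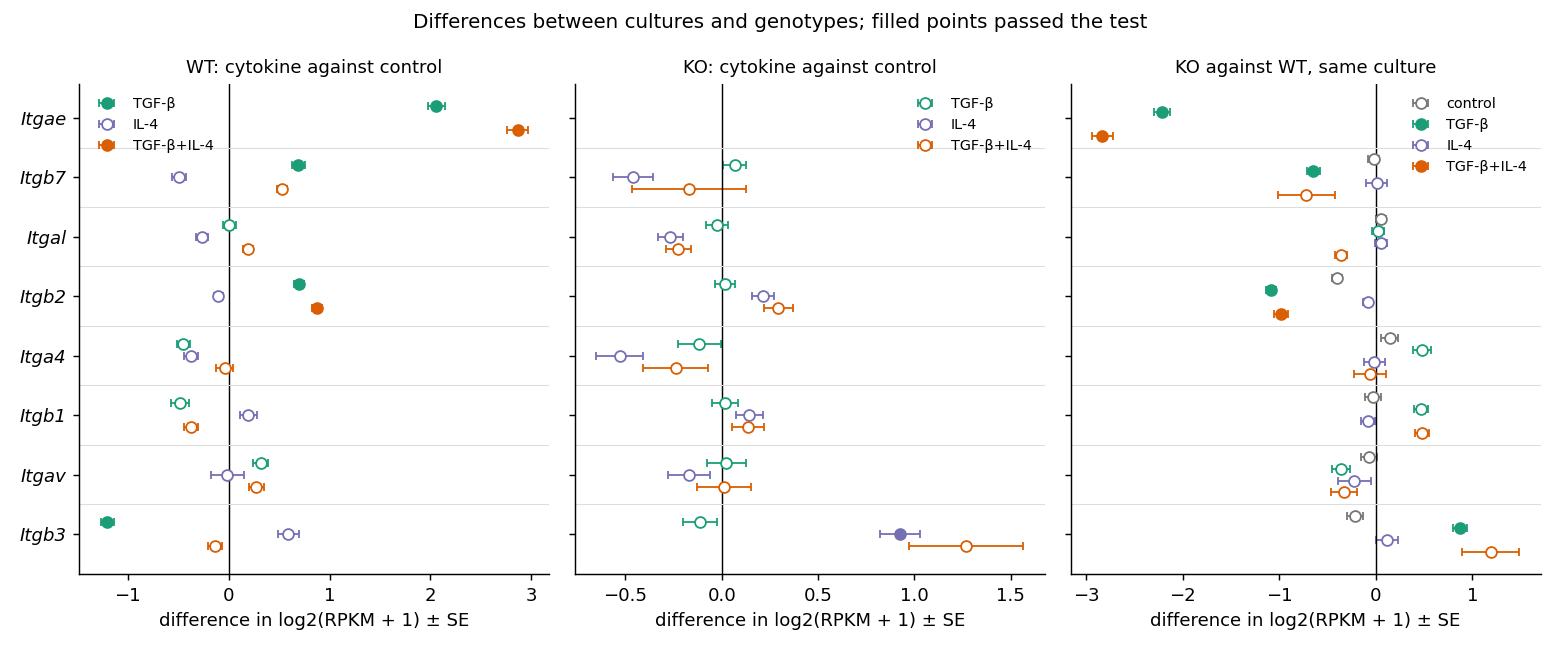
Differences in log2(RPKM + 1) with SE for the 8 integrin genes that could be tested, by cytokine against control in WT (left) and in KO (middle), and KO against WT in the same culture (right). Each panel has its own x axis, and filled points passed both thresholds. Itgae and Itgb2 lay to the right with TGF-β in WT and to the left in KO against WT, Itgb3 did the opposite with TGF-β alone, and Itgae is missing where it was too low to test.

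Itgb3, which pairs with αv, was lowest in WT TGF-β. It was 2.77, 2.94 and 2.99 RPKM in WT control and only 0.683, 0.769 and 0.637 RPKM in WT TGF-β. In WT IL-4 it was 4.95, 5.77 and 4.05 RPKM, and in WT TGF-β+IL-4 it was 2.49, 2.72 and 2.45 RPKM. All 4 WT groups were clear of each other, with the 2 cytokines together close to, but below, control. Between the WT groups compared, 24.3% to 56.5% of genes tested were clear of each other too. Itgb3 fell with TGF-β by 1.20 ± 0.066 on the log2 scale (adjusted p = 1.45e-05), a 4.17-fold lower mean RPKM. IL-4 alone gave 0.59 ± 0.11 (adjusted p = 0.0182), which did not pass, and 0.70 (adjusted p = 0.00591) without WT IL-4 replicate 3. From TGF-β to TGF-β+IL-4 it rose by 1.07 ± 0.079 (adjusted p = 3.59e-05), and from IL-4 to both it fell by 0.73 ± 0.11 (adjusted p = 6.08e-04).

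In KO the TGF-β effect on Itgb3 was not seen and the IL-4 effect was. KO control was 2.12, 2.26 and 2.72 RPKM, KO TGF-β 2.05, 2.08 and 2.19 RPKM, and KO IL-4 4.83, 5.97 and 5.39 RPKM. IL-4 raised it by 0.93 ± 0.10 in KO (adjusted p = 6.37e-04), the only member called among 7 tested where 2.51% of genes were called. The genotype term for IL-4 was 0.33 ± 0.15 (adjusted p = 0.607), so that a difference from the WT effect was not shown. Under TGF-β the KO lay above WT by 0.87 ± 0.074 (adjusted p = 4.00e-05), and the genotype term was 1.09 ± 0.11 (adjusted p = 2.11e-05), in a test that called 4.71% of genes and 4 of 8 members. With all 24 libraries in one fit this term had an adjusted p of 0.0137 and was not called.

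KO TGF-β+IL-4 had Itgb3 at 4.64, 12.99 and 5.72 RPKM, all above every WT TGF-β+IL-4 library. These groups did not overlap for 49.1% of genes tested. With all 3 libraries the difference from WT was 1.19 ± 0.30 (adjusted p = 0.0170). Without replicate 2 it was 0.79 (adjusted p = 3.49e-04) and was called, as was the difference from KO control (0.87, adjusted p = 0.00256). Platelets also carry β3. Their 5 markers summed to 0.231 to 3.81 RPKM in WT and 0.968 to 13.4 RPKM in KO, highest in 1 KO IL-4 library and led by Pf4, which in WT was 0.653, 0.126 and 1.08 RPKM with TGF-β and 1.83, 3.69 and 1.28 RPKM in control. The NK cell markers were also lowest in the WT cultures with TGF-β. The part of these cells in the Itgb3 values was not tested.

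Itgav, the α chain of αvβ3 and of the integrins that release TGF-β from its latent form, changed little. It was 3.75, 4.33 and 3.94 RPKM in WT control, 5.52, 5.11 and 5.07 RPKM in WT TGF-β and 4.91, 5.02 and 5.21 RPKM in WT TGF-β+IL-4, while the KO libraries lay between 2.69 and 4.61 RPKM. The difference with TGF-β in WT was 0.32 ± 0.071 (adjusted p = 0.0176), and no comparison called it. WT IL-4 was the widest group, at 4.17, 2.76 and 5.24 RPKM. The mean ratio of Itgav to Itgb3 RPKM was 7.56 ± 0.79 in WT TGF-β and 1.83 ± 0.22 in KO TGF-β.

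Itga4, the α chain of the gut-homing and VCAM-1 receptors, was low, and in WT it lay below control in each cytokine alone but not in both together. In WT control it was 1.83, 1.84 and 1.77 RPKM, in WT TGF-β 1.06, 0.977 and 1.15 RPKM, and in WT IL-4 1.25, 1.09 and 1.18 RPKM. In WT TGF-β+IL-4 it was 1.70, 1.52 and 2.02 RPKM, overlapping with control and clear of either cytokine alone. Both cytokines were clear of TGF-β for 39.6% of genes tested and of IL-4 for 56.5%. On the log2(RPKM + 1) scale the single differences stayed under the fold threshold, at -0.45 ± 0.065 with TGF-β (adjusted p = 0.00218) and -0.37 ± 0.069 with IL-4 (adjusted p = 0.0206). With a pseudocount of 0.1 the TGF-β difference was -0.72 (adjusted p = 0.00262) and was called, and mean RPKM differed 1.71-fold. The test of TGF-β with against without IL-4 was called at 0.78 ± 0.11 (adjusted p = 0.00115) and in each of 12 fits that left out 1 library. With the 8 libraries identified by read counts alone it was 0.78 (adjusted p = 0.0125), and with all 24 libraries in one fit its adjusted p was 0.0110, neither of which passed. In KO, Itga4 was 1.97, 1.88 and 2.50 RPKM in control, 1.90, 1.55 and 2.18 RPKM with TGF-β, 1.06, 1.47 and 0.951 RPKM with IL-4 and 1.51, 2.35 and 1.16 RPKM with both, with no call. Under TGF-β the KO and WT libraries did not overlap, as for 51.5% of genes tested. The difference was 0.48 ± 0.097 (adjusted p = 0.00527), which was called at 0.76 with a pseudocount of 0.1 (adjusted p = 0.00517).

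Itgb1, the β chain of α4β1 and of the collagen receptors, was lower in the WT cultures with TGF-β. It was 32.7, 32.8 and 38.2 RPKM in WT control, 25.8, 21.6 and 26.02 RPKM in WT TGF-β, 36.4, 39.3 and 43.4 RPKM in WT IL-4 and 25.3, 27.5 and 26.5 RPKM in WT TGF-β+IL-4. The 12 KO libraries ran from 30.8 to 39.2 RPKM, all above every WT library with TGF-β. KO and WT in the same culture did not overlap for 51.5% of genes tested under TGF-β and 49.1% under both. The differences were past the p threshold but under 1.5-fold, at -0.48 ± 0.090 with TGF-β (adjusted p = 0.00736), -0.37 ± 0.070 with both (adjusted p = 0.00254) and -0.57 ± 0.068 from IL-4 to both (adjusted p = 1.80e-04). The last passed the fold threshold without WT IL-4 replicate 1 (-0.63) or WT TGF-β+IL-4 replicate 2 (-0.59). KO against WT gave 0.47 ± 0.073 under TGF-β (adjusted p = 0.00144) and 0.48 ± 0.070 under both (adjusted p = 0.00162).

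Itga1 and Itga2, which pair with β1 to bind collagen, were at the edge of detection. The values of both genes are whole multiples of 1 read once relative depth is taken into account, which gives the reads behind them. For Itga1 the reads numbered 2, 0 and 1 in WT control. They were 12, 4 and 14 in WT TGF-β, 8, 1 and 5 in WT IL-4 and 11, 7 and 15 in WT TGF-β+IL-4. All WT libraries with TGF-β, alone or with IL-4, were above all WT control libraries. Among genes that passed the filter, 38.5% did not overlap with control under TGF-β and 54.4% under both. In KO, 9 of 12 libraries had 0 reads, and replicate 2 of the 3 cytokine cultures had 2 each, which makes 6 reads in KO against 80 in WT. Itga2 had 82 reads in WT and 37 in KO, with groups that overlapped in WT and 1 read in all of KO control. A count of 0 allows up to 3 reads, so that absence is not shown, and neither gene was tested.

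Several comparisons called no member by limma, and they are given with the number past an unadjusted p of 0.05. For IL-4 against control in WT it was 0 of 7 members called, 1.29% of genes called and 5 members past p. For TGF-β against control in KO it was 0 of 7, 0.0105% of genes and 0 members past p, and for both cytokines against control in KO it was 0 of 7, 1.92% of genes and 3 members past p. For KO against WT it was 0 of 7 in control, with 2.46% of genes and 2 members past p, and 0 of 7 in IL-4, with 2.99% of genes and 0 members past p. The genotype term for IL-4 called 0 of 7 members and 0.0414% of genes, with 1 member past p. The genotype term for both cytokines called 1 of 8 members, Itgae, and 4.18% of genes, and 4 of 8 members without KO TGF-β+IL-4 replicate 2. In each, a p that misses the threshold does not show that values were alike. The KO Itgb7 difference with both cytokines, for example, had a 95% interval from -0.84 to 0.50 on the log2 scale.

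Among the 16 other integrin subunits listed, only 3 could be tested for TGF-β+IL-4 against control in WT, of which 1 was higher and 1 lower. Itga6, the α chain of laminin receptors, was 2.06, 2.03 and 2.20 RPKM in WT control, compared with 4.14, 3.37 and 4.54 RPKM in WT TGF-β+IL-4 (0.69 ± 0.097, adjusted p = 5.00e-04). Itga3, which also makes a laminin receptor, was 1.65, 2.23 and 1.58 RPKM in WT control, compared with 0.612, 0.845 and 0.740 RPKM in WT TGF-β+IL-4 (-0.70 ± 0.11, adjusted p = 7.83e-04). The median over the 3 tested subunits was 0.21, over the 8 members 0.23 and over all genes 0.025. Itga3 also fell with TGF-β alone in WT (-0.61 ± 0.11, adjusted p = 0.00529) and with IL-4 in KO (-0.60 ± 0.098, adjusted p = 0.00539), and under TGF-β it was higher in KO than in WT (0.74 ± 0.089, adjusted p = 3.24e-04). Its genotype term for TGF-β was 0.75 ± 0.14 (adjusted p = 0.00392).

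Of 34 genes for integrin activation and adaptors, 27 could be tested in the same comparison and 2 were called, both higher, with a median of 0.26, where 9.27% of all genes were called. They were Cyth1 (cytohesin-1, which binds the β2 tail), from a mean of 27.2 to 42.5 RPKM (0.62 ± 0.056, adjusted p = 4.01e-05), and Ptk2b (the kinase Pyk2), from 27.0 to 41.7 RPKM (0.61 ± 0.067, adjusted p = 1.16e-04). Cyth1 was also 40.2 RPKM in KO TGF-β+IL-4, whereas Ptk2b was 25.4 RPKM there and its difference from WT was -0.70 ± 0.10 (adjusted p = 0.00159). Of 17 integrin ligands, 5 could be tested, with a median of -0.091. The 1 called was Lrrc32 (GARP), which displays latent TGF-β for αv integrins. It was 1.49, 1.42 and 1.55 RPKM in WT control, compared with 4.51, 5.27 and 4.75 RPKM in WT TGF-β+IL-4 (1.23 ± 0.078, adjusted p = 5.14e-06), and 1.06, 1.77 and 1.25 RPKM in KO TGF-β+IL-4. Icam1, the ligand of LFA-1, is added after its values were seen. Its mean was 40.3 ± 2.1 RPKM in WT control and 21.9 ± 1.1 RPKM in KO control, and KO lay below WT in all 4 cultures, with differences of -0.85 ± 0.063 in control (adjusted p = 1.42e-04), -0.72 ± 0.082 in TGF-β (adjusted p = 2.34e-04), -0.66 ± 0.066 in IL-4 (adjusted p = 2.76e-04) and -0.60 ± 0.10 in both (adjusted p = 0.00346).

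The genes most like Itgae over the 24 libraries, by Pearson correlation of log2(RPKM + 1) with 517 variable genes, were Tgfbr1 (r = 0.98), Ldlrad4 (r = 0.98), Grb7 (r = 0.98), Lzts2 (r = 0.98) and Tmprss3 (r = 0.98). Tgfbr1 is the gene the KO targets. Ldlrad4, an inhibitor of Smad signalling, had means of 0.988 RPKM in WT control, 6.30 RPKM in WT TGF-β, 8.31 RPKM in WT TGF-β+IL-4 and at most 0.573 RPKM in a KO group. These points share libraries and groups, and the correlations are a description.

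For Itgb2 the nearest were Mapkapk3 (r = 0.99), Traf6 (r = 0.98) and Smyd3 (r = 0.98), for Itgb7 Txk (r = 0.94), Sntb1 (r = 0.92) and Eif4e3 (r = 0.92), and for Itgb1 Serpinb9 (r = 0.93), Tnfrsf8 (r = 0.89) and Tg (r = 0.89). For Itgb3 they were Ncoa7 (r = 0.93), Ptpn5 (r = 0.91) and Cd83 (r = 0.91). The other 3 members had no gene above 0.79, with Sntb1, Il1r2 and Endod1 for Itgal, Med14, Cpd and Anxa3 for Itgav, and Ms4a6b, Phf11b and Phf11a for Itga4. Among the members themselves, Itgae was closest to Itgb2 (r = 0.96) and farthest from Itgb1 (r = -0.82).

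DNase-seq marks DNase I hypersensitive sites (DHSs), stretches of open chromatin that often are promoters or enhancers. The lists were called on each library alone and hold 44298 DHSs for WT control, 33665 for KO control, 33880 for WT given TGF-β+IL-4 and 27145 for KO given TGF-β+IL-4, with no replicate and with unknown depth, so that no test was made. A DHS missing from a list was below the threshold of the caller there, which does not show closed chromatin. Within 10 kb of the 10 genes, the lists hold 64, 43, 44 and 32 DHSs in the same order. Of the 44 in WT TGF-β+IL-4, 16 (36.4%, exact binomial 95% interval 22.4 to 52.2, counting error only) overlapped none in KO TGF-β+IL-4, against 30.6% of the whole list. Only 4 (9.09%, 2.53 to 21.7) overlapped none in WT control, against 10.8% of the whole list. Both intervals include the share of the whole list. When every list was held to its 27145 strongest DHSs, the second share was 38.5% (15 of 39, 23.4 to 55.4) against 20.3% of the whole list, outside the interval. This cut the WT control list from 44298, so that a DHS missing here can be present in the full list, where 4 of 44 were missing. The 38.5% is therefore not a share of newly opened sites.

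**Figure D3:**
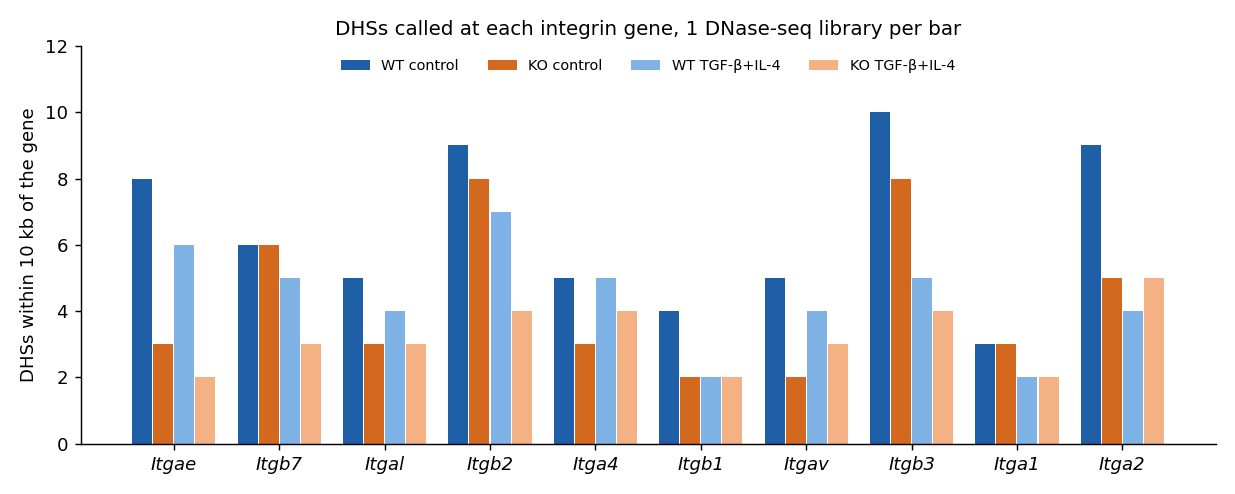
Number of DHSs within 10 kb of each integrin gene in the 4 DNase-seq libraries, 1 library per bar. WT control had the most or shared the most at all 10 genes, and at Itgae the WT libraries had 8 and 6 DHSs against 3 and 2 in the KO libraries.

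A DHS lay within 1 kb of the start of 8 genes in all 4 lists, whatever the level of their mRNA, including Itga2. Itgae and Itga1 had none there in any list. The strongest DHS within 10 kb of Itga1 lay in an intron, 11.7 kb from the start. Its fold enrichment over background was 12.3, 8.64, 10.9 and 9.58 in the order of the lists above (WT and KO control, then WT and KO with both cytokines). DHSs were placed by position alone, and other genes lying within or near a member were not looked up. A DHS given for a member may therefore belong to another gene. Promoter DHSs were in all 4 lists also at Itgb7, Itgb2 and Itgb3, whose mRNA differed between the cultures.

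Itgae (ENSMUSG00000005947.5, mm9 chr11:72904085-72960948, plus strand) had 8 DHSs in the control list of WT and 3 in that of KO, and with TGF-β+IL-4 it had 6 DHSs in WT and 2 in KO. A site 6.1 kb upstream had a fold enrichment of 5.14 in WT control, compared with 5.79 in WT TGF-β+IL-4, and a site 4.2 kb into the gene had 4.83 and 5.79. Both were missing from both KO lists. A site at 5.1 kb was in the 2 WT lists (4.77 and 5.28) and, weaker, in KO TGF-β+IL-4 (3.52). An intronic site at 17.8 kb was in WT TGF-β+IL-4 alone (5.21). The strongest, at 47.8 kb, was in all 4 lists, at 8.40, 7.86, 6.77 and 5.77 in the order of the lists. Whether another gene starts at this site was not looked up. Weaker sites were in WT control at 8.5 kb (3.73), 19.7 kb (3.33, and 2.98 in KO control) and 47.0 kb (3.63). Of the 6 sites in WT TGF-β+IL-4, 5 were also in WT control, where Itgae mRNA was 0.196 to 0.363 RPKM.

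The 3 Itgae sites listed next were in WT TGF-β+IL-4 but absent from both KO lists, and are shown because they lie at the gene with the largest difference in mRNA. Each is 150 bases around the summit, on the plus strand of mm9, with matches to known motifs in capitals. The motifs searched on both strands were CAGAC (the Smad core, GTCTG on the other strand), GTCTAGAC (the palindromic Smad element), TGTGGT (Runx, ACCACA on the other strand), TGANTCA (AP-1), TTCNNNGAA (STAT5) and the STAT6 site, which has the same arms 4 bases apart.
Itgae 6.1 kb upstream, chr11:72897939-72898088: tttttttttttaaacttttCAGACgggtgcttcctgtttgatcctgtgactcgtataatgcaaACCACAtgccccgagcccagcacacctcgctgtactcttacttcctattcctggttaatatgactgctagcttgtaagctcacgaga
Itgae 4.2 kb, intron, chr11:72908220-72908369: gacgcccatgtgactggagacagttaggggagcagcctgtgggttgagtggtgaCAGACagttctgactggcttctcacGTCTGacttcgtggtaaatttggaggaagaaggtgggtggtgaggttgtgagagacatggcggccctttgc
Itgae 17.8 kb, intron, chr11:72921797-72921946: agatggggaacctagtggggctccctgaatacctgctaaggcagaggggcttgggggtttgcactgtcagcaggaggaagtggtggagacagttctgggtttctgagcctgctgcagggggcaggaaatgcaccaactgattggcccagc

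The upstream site held 1 Smad core and 1 Runx match, and the site at 4.2 kb held 2 Smad cores. The site found in WT TGF-β+IL-4 alone held none of the 6 motifs in this window. Of all 33880 DHSs in WT TGF-β+IL-4, 33.3% held the Smad core in a window of the same length, 16.4% the Runx match, 8.71% AP-1, 5.27% STAT5, 4.51% STAT6 and 0.221% the palindrome. A match is a description and not a binding site, and no match says only that the letters are not in the window.

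Over all members, 6 of the 44 DHSs in WT TGF-β+IL-4 (13.6%, exact binomial 95% interval 5.17 to 27.4) were also in WT control and in neither KO list, against 8.08% of the whole list. They were chosen after their values were seen. Besides the 2 at Itgae they lay at Itgb2, Itga4, Itgal and Itgav. The Itgb2 site (ENSMUSG00000000290.7, chr10:76992997-77028453, plus strand), in an intron 26.6 kb from the start, had a fold enrichment of 8.09 in WT control, compared with 8.90 in WT TGF-β+IL-4, and the promoter DHS had 8.82 and 8.14. The Itga4 site (ENSMUSG00000027009.11, chr2:79095583-79173280, plus strand), in an intron 14.7 kb from the start, had 4.55 and 7.0. Their sequences are shown because they are the strongest such sites outside Itgae.
Itgb2 26.6 kb, intron, chr10:77019505-77019654: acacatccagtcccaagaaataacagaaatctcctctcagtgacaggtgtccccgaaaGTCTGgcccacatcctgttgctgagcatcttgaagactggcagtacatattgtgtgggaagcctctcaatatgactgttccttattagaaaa
Itga4 14.7 kb, intron, chr2:79110254-79110403: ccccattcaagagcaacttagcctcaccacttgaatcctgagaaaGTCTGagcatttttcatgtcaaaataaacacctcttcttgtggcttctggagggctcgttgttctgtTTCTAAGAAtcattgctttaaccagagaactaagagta

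The Itgb2 window held 1 Smad core, and the Itga4 window held 1 Smad core and 1 STAT5 match. Itga4 also had a site 0.7 kb upstream in WT TGF-β+IL-4 alone (3.49), next to a promoter DHS that was in all 4 lists. At Itgb3 (ENSMUSG00000020689.3, chr11:104469370-104531790, plus strand) and Itgb7 (ENSMUSG00000001281.3, chr15:102046426-102062366, minus strand) no DHS was in both WT lists and in neither KO list.

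**Figure D4:**
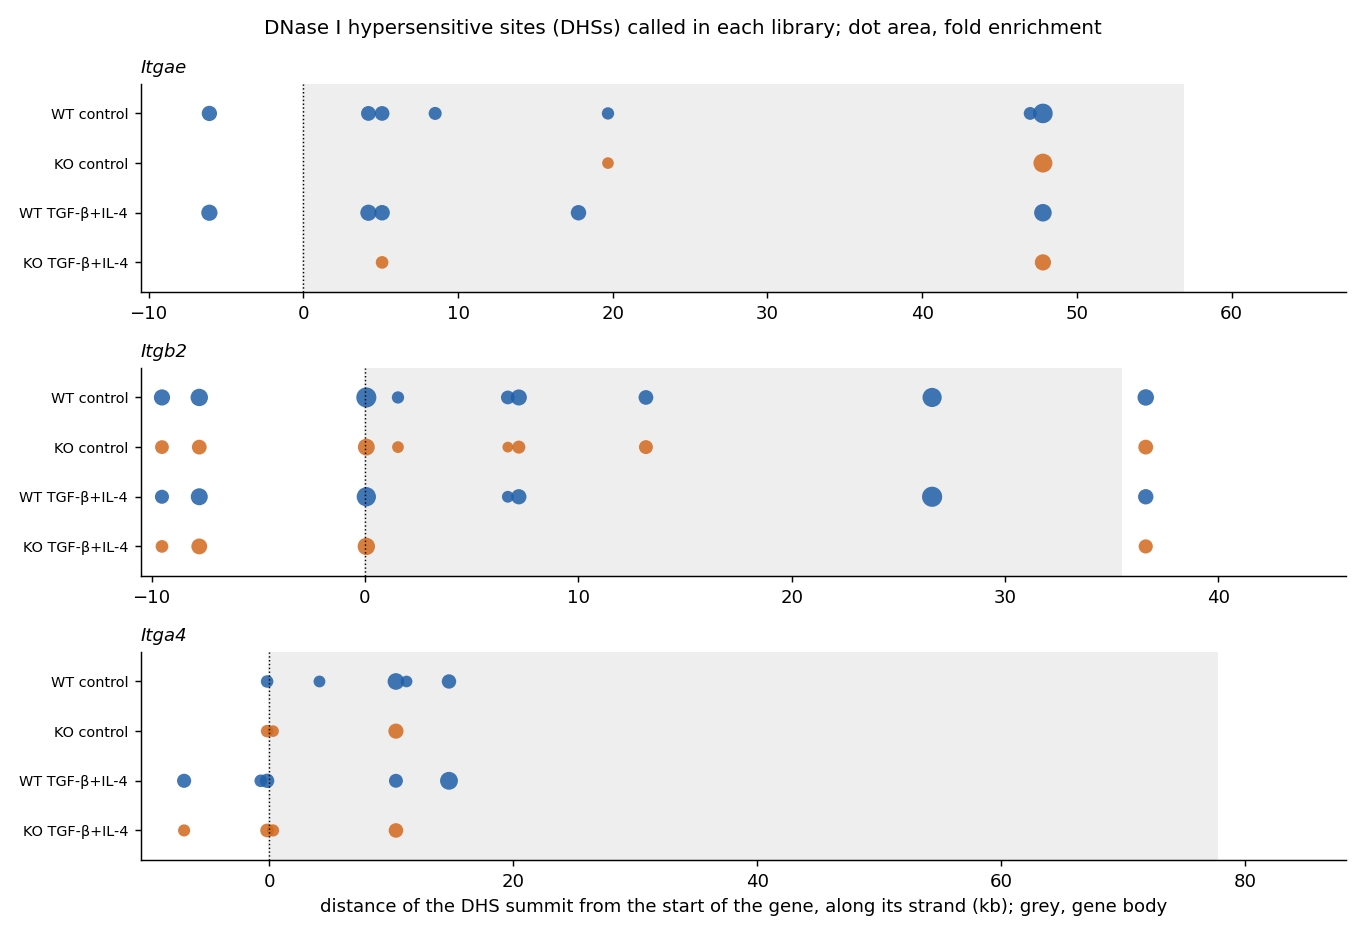
DHSs at Itgae, Itgb2 and Itga4 in the 4 DNase-seq libraries, plotted by distance of the summit from the start of the gene in kb, with WT in blue and KO in orange. Dot area is the fold enrichment, grey marks the gene body, and 1 Itgae site is not shown. Itgae lacks a dot at its start in every list, and the Itgb2 dot at 26.6 kb is large in both WT lists and missing from both KO lists.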

How the data were processed

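RNA-seq libraries were made by Smart-seq2 and DNase-seq libraries from crosslinked cells. Bowtie2 was used by the authors for alignment to mm9, and poorly mapped and duplicate reads were dropped. DNase I peaks were called by the authors on each library with MACS2, and the deposited lists give fold enrichment (a ratio), −log10 p and −log10 q values. The deposited RPKM values per gene were computed by the authors with edgeR. The annotation behind the RPKM values is not given in the sources used here. Columns were assigned as described above, by library-number order, and 0 columns of other samples were found.

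RPKM values were tested as log2(RPKM + 1) with limma 3.58.1 (trended moderation, two-sided, Benjamini-Hochberg adjustment over all genes tested), in genes whose RPKM averaged 1 or more over the fit, and only the compared groups entered a fit. Error bars are SD between libraries for levels and SE for differences. Calls needed an adjusted p under 0.01 and a fold over 1.5, the thresholds of the study. The limma test was tried on simulated data for TGF-β+IL-4 against control, in WT and in KO. This covered neither the genotype terms, nor the test of TGF-β with against without IL-4, nor the reading of the columns. Depth cannot be stated in reads, and low genes are the least precise. Peaks were compared by an overlap of at least 1 bp within 10 kb of the genes, with exact binomial intervals that cover counting error only. Gene positions are from GENCODE vM1, on mm9. Sequences are from the same build. 1 DHS is counted but not reported here on its own.

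Members, gene lists and tests were chosen with earlier results of these data known. All 10 members are named. Other integrin genes are named by the size of their change with TGF-β+IL-4 in WT (up to 4 called per list), listed subunits where they were called in any comparison, and similar genes by correlation among genes with an SD of at least 0.5. Alternatives were other column readings, pseudocounts, filters, scalings, thresholds, fits with all libraries or a replicate block, leaving out each library, and for peaks the overlap, threshold, list length and window. Same-numbered replicates deviated together in every pair for 1 of 12 comparisons of groups (TGF-β against control in KO), and the reported tests have no block.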

Additional observations from a re-analysis of the deposited data

Results flagged for a closer look

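The effect of TGF-β differed between genotypes for 4 of 8 members tested, where 4.71% of genes were called, by the interaction test (KO minus WT, log2, limma), at -2.03 ± 0.13 for Itgae (adjusted p = 4.40e-07), -0.62 ± 0.086 for Itgb7 (adjusted p = 3.35e-04), -0.68 ± 0.069 for Itgb2 (adjusted p = 2.76e-05) and 1.09 ± 0.11 for Itgb3 (adjusted p = 2.11e-05). The Itgb7 difference lost its fold over 1.5 without WT TGF-β replicate 2 (-0.56). With all 24 libraries in one fit the Itgb7 and Itgb3 terms were not called (adjusted p = 0.210 and 0.0137). For TGF-β plus IL-4 the difference was called for Itgae, at -2.65 ± 0.15 (adjusted p = 4.44e-07).

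In WT the effect of TGF-β with IL-4 differed from that without IL-4 for Itgae, at 0.65 ± 0.13 (adjusted p = 0.00764), and for Itga4, at 0.78 ± 0.11 (adjusted p = 0.00115). The Itgae call was lost in 10 of 12 fits that left out 1 library, with a pseudocount of 0.1 (adjusted p = 0.290), no filter (0.0217), a replicate block (0.0110) or the libraries identified by read counts (0.0406). The Itga4 call was lost with those libraries (adjusted p = 0.0125) and with all 24 libraries in one fit (0.0110). Groups of 3 libraries are too small for a test of single outlying libraries.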

How the results depend on the processing

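The calls depended on the reading of the columns. With columns as headed, 0 members were called in every comparison, and 15 member differences changed sign. For Itga4 these were 0.068 for TGF-β and 0.049 for IL-4 against WT control, -0.032 and -0.013 for TGF-β+IL-4 against TGF-β and IL-4 in WT, 0.24 for IL-4 in KO, -0.048 for genotype by TGF-β and -0.081 for TGF-β by IL-4. For Itgb7 they were 0.042 for IL-4 in WT, 0.33 for IL-4 in KO and -0.27 for TGF-β by IL-4, for Itgal -0.097 for TGF-β+IL-4 against IL-4, 0.0032 for KO against WT under both and -0.27 for TGF-β by IL-4, and for TGF-β by IL-4 also -0.11 for Itgae and -0.39 for Itgb3. Outside the headings, 988 of 1041 member values under the alternatives had the direction and side of the threshold of the reported ones, 22 lost and 31 gained a call and 0 changed sign. The scalings moved the median of all genes by less than 0.1.

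A mean of at least 5 RPKM removes the low members from the tests by construction, which left 2, 1, 1 and 2 members called for TGF-β, TGF-β+IL-4, both against TGF-β and both against IL-4 in WT, 0 for IL-4 in KO, 2 and 1 for KO against WT under TGF-β and both, and 2, 0 and 0 for genotype by TGF-β, genotype by both and TGF-β by IL-4. With all 24 libraries in one fit the counts were 1 for both cytokines in KO, 4 for KO against WT under both, 2 for genotype by TGF-β, 2 for genotype by both and 1 for TGF-β by IL-4, and Itgb7 was not called for TGF-β in WT or for KO against WT under TGF-β. At an adjusted p under 0.05 they were 1 for IL-4 in WT and 2 for genotype by both, quantile normalization gave 3 for the latter, and TGF-β by IL-4 gave 1 with no filter and 0 with the WT libraries identified by read counts. For the other settings the cause was not tested.

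Leaving out 1 library gave unchanged counts in 8 comparisons and 0 to 1 members for IL-4 in WT, 4 to 5 for both against IL-4, 0 to 1 for both in KO, 3 to 4 for KO against WT under TGF-β and 2 to 4 under both, 2 to 4 for genotype by TGF-β, 1 to 4 for genotype by both and 1 to 2 for TGF-β by IL-4. The largest moves came without KO TGF-β+IL-4 replicate 2 (4 for KO against WT under both and 4 for genotype by both) and without WT TGF-β replicate 2 (2 for genotype by TGF-β, where Itgae fell under the filter and Itgb7 under the fold threshold). A replicate block gave 1 for TGF-β by IL-4, where Itgae was no longer called (adjusted p = 0.0110), and changed no other count of members by over 1.5 times. Same-numbered libraries deviated together in all 3 pairs for TGF-β against control in KO (r = 0.310, 0.351 and 0.331), where the block also called 0 members, and in no other comparison did all pairs pass 0.1. The share of WT TGF-β+IL-4 DHSs missing from WT control was 38.5% (interval 23.4 to 55.4) when every list was held to its 27145 strongest DHSs, with 20.3% over the whole list. A DHS missing there can be in the full WT control list, which this setting shortened. The other peak settings stayed within the interval of the reported share. Low values, 1 DNase-seq library per condition and the unknown depth limit the precision.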

Other observations

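Some integrin subunits outside the 10 genes had values of the same kind without a call, and those given here were chosen after their values were seen. Itga5, which makes the fibronectin receptor α5β1, was 2.36, 2.85 and 2.43 RPKM in WT control and 3.48, 3.71 and 3.55 RPKM in WT TGF-β, and the 12 KO libraries lay between 1.81 and 2.37 RPKM. Itgax, the α chain of a β2 integrin found on dendritic cells, had mean values of 0.130 RPKM in WT control, 0.220 RPKM with TGF-β, 0.339 RPKM with IL-4 and 0.456 RPKM with both, and in KO of 0.106, 0.0799, 0.415 and 0.218 RPKM in the same order, all too low to be tested.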
